A study of Homo sapiens with 12 samples.

Results

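The response of a gene to TGFβ was compared between wild type A549 cells and an edited A549 line, and for each gene whose response differed the difference was traced to the untreated cells, to the treated cells, or to both. The quantity compared was the change with TGFβ in the edited line minus the change with TGFβ in wild type, on the scale log2(normalized count + 1), and is called the interaction. Members were all genes that reached a normalized count of 10 in 3 or more of the 12 libraries, 20456 of the 58830 entries of the table. The same number is the difference between the lines with TGFβ minus the difference between the lines without it, so a gene can reach a given interaction from either state.

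A549 is an epithelial line from a human lung adenocarcinoma. The 4 groups were wild type cells (genotype label WT) and the derivative labelled Sm22mut (genotype label miR22/SNAI1 target site KO), each without treatment or with 10 ng/mL TGFβ, sampled at day 5 with 3 libraries a group. Single libraries are called WT-U1 to WT-U3 (wild type, untreated), WT-T1 to WT-T3 (wild type with TGFβ), ED-U1 to ED-U3 (edited line, untreated) and ED-T1 to ED-T3 (edited line with TGFβ). The labels call the libraries biological repeats and do not say whether they came from separate cultures, so p-values measure the spread between these libraries. A single edited derivative was sequenced, and the labels give no clone number and no control line that went through editing. Effects of the edit and of deriving the line therefore cannot be told apart. All 12 libraries share the A549 background and the complete medium.

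TGFβ binds receptor kinases that phosphorylate SMAD proteins, which enter the nucleus and switch genes on or off together with other factors such as AP-1. In lung epithelial cells it slows the cell cycle and drives the epithelial-mesenchymal transition (EMT), in which junction genes fall and matrix genes rise. SNAI1 is a zinc finger repressor of epithelial genes that TGFβ induces, and the microRNA miR-22 can pair with the 3′ untranslated region of its mRNA. A microRNA pairs mainly through its seed, bases 2 to 8 from the 5′ end.

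The labels say that a miR-22 target site of SNAI1 was knocked out, so the seed and its matches are shown. In the mature miR-22-3p (RefSeq, GRCh38.p14, chr17:1713914-1713935, minus strand) the capitals are the seed. The annotated SNAI1 3′ untranslated region (GENCODE 29, GRCh38, plus strand) held 2 matches to that seed, in capitals, at chr20:49988284-49988290 and chr20:49988578-49988584. The stretches printed around them are chr20:49988270-49988297 and chr20:49988564-49988591. The labels do not say which of these was edited or what the edited sequence is.
hsa-miR-22-3p: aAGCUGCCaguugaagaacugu
SNAI1 match 1: ttctgtggagggagGGCAGCTggccccc
SNAI1 match 2: atgccccgagcccaGGCAGCTatttcag

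Both lines kept the keratins KRT8 (248927 to 351081) and KRT18 (131754 to 197574) high in the 12 libraries, while the lung lineage genes NKX2-1 (2.15 to 26.9) and SFTPB (0 to 12.4) were low. The libraries held 84210775 to 111141708 reads. Of markers of other cell types, 0 of 6 tested fibroblast, 0 of 4 endothelial and 0 of 5 leukocyte genes had a called interaction with limma (at an unadjusted p under 0.05, 1, 0 and 1; with edgeR or DESeq2, 0, 0 and 0), and at most 1 a list in any of the 24 alternatives. Over all genes tested the interaction was called in 16.6%, and over those with a mean under 100, where many of these markers lie, in 3.31%. Counts of 0 in lists this small therefore say little. Summed fibroblast markers were 599.8 to 726 in untreated wild type, 543 to 642 in the untreated edited line, 2771 to 2864 in treated wild type and 2990 to 3438 in the treated edited line. The sums were 895 to 1084, 1111 to 1273, 901 to 1138 and 1204 to 1489 for endothelial markers and 86.7 to 123, 120 to 152, 112 to 149 and 153 to 179 for leukocyte markers, in the same order. Most of the endothelial sum was EGFL7 (750 to 1421 over the 12 libraries). An interaction call does not tell whether other cells were present. The fibroblast gene DPT was at 0 in the 6 untreated libraries. Mitochondrially encoded reads made up 2.54% to 2.83%, 2.23% to 2.51%, 2.73% to 3.79% and 2.20% to 2.64% of these groups, in the same order. Untreated and with TGFβ alike, that share was higher in each wild type library than in each library of the edited line, and its part in the results was not tested.

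The targeted gene is given first. SNAI1 (GRCh38.p14, chr20:49982980-49988886) was counted at 510.4, 400.4 and 576 in wild type and at 513, 499 and 432 in the edited line without TGFβ. With TGFβ, SNAI1 stood at 958, 897 and 768 in wild type and at 1406, 1214 and 1318 in the edited line. The untreated libraries of the lines overlapped, and each treated library of the edited line lay above each treated library of wild type. SNAI1 rose by 0.83 in wild type and by 1.45 in the edited line on the log2 scale, an interaction of 0.62 ± 0.18, adjusted p = 0.0279 (± is the standard error of the fit here and below for log2 differences). The lines differed by -0.03 ± 0.13, adjusted p = 0.884 untreated and by 0.59 ± 0.13, adjusted p = 0.00685 with TGFβ, so the interaction of SNAI1 came from the treated state. The call was lost without WT-U1, WT-U3, WT-T2, ED-U3, ED-T1 or ED-T3 (interaction 0.50 to 0.64). MIR22HG, the host transcript of miR-22 (chr17:1711504-1716210), rose in both lines (1.01 and 0.73), and its interaction of -0.27 ± 0.12, adjusted p = 0.132 did not pass, except without WT-U2 (interaction -0.36). An edited target site can leave the SNAI1 read count as it was, and the genotype labels were not checked by it.

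The interaction was called for 3395 genes, 16.6% of those tested (limma, Benjamini-Hochberg adjusted p under 0.05, and 6114 at an unadjusted p under 0.05). Of these, 2163 (10.6% of genes tested) had a higher value with TGFβ relative to untreated in the edited line than in wild type, and 1232 (6.02%) a lower one. The higher share was 63.7% of calls, and it was 53.4% after quantile normalization (1759 higher, 1533 lower) and 51.5% after scaling to equal totals (1731 and 1627). At least 2-fold interactions numbered 553. A higher interaction covers several forms of response. The response to TGFβ itself was called in 61.7% of genes tested in wild type and in 62.8% in the edited line (30.8% and 32.1% higher, 30.9% and 30.7% lower). Among the 2163, 738 genes rose in both lines and did so more in the edited line, 509 fell in both and fell less in the edited line, 388 fell in wild type and did not pass in the edited line, 380 passed as risen in the edited line alone, and 142 fell in wild type and rose in the edited line. Among the 1232 lower ones, 417 fell in both and fell more in the edited line, 296 passed as fallen in the edited line alone, 237 rose in both and rose less in the edited line, 201 passed as risen in wild type alone, and 76 rose in wild type and fell in the edited line. The remaining 11 passed in neither line.

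Most called interactions came with a difference between the lines in untreated cells, which the labels give as day 5 without treatment. For 2281 genes (67.2% of calls, 11.2% of genes tested) the lines differed in untreated cells and the difference with TGFβ did not pass. The converse, a called difference with TGFβ and none in untreated cells, held for 425 (12.5% of calls, 2.08% of genes tested). The lines differed in both states with opposite signs for 234 genes and with the same sign for 225, and for 230 the difference passed in neither state alone. Over all 20456 genes the lines differed in 31.8% untreated (14.3% higher and 17.5% lower in the edited line) and in 11.7% with TGFβ (7.38% higher and 4.32% lower), so the untreated state also held more line differences whether or not the interaction passed.

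A missed threshold in a state does not show that the lines were equal there, so the sizes of the differences were tested as well. Where the interaction and the mean of both line differences pass, their signs tell which state holds the larger difference. By that rule the line difference was larger untreated for 1652 of the called genes (48.7%, 8.08% of genes tested), larger with TGFβ for 219 (6.45%, 1.07% of genes tested), and not decided for 1524. Among the 2281 genes of the untreated class, the median size of the line difference was 0.49 untreated and 0.11 with TGFβ, and among the 425 of the treated class 0.11 and 0.41. These medians follow from how the classes are formed, by tests on the same libraries, and so do the overlaps given next. Neither is further support for the classes. In 2244 of the 2281 the untreated libraries of the lines did not overlap, and in 1709 of these the treated libraries did. In 416 of the 425 the treated libraries did not overlap, and in 302 of these the untreated ones did. Among the 17061 genes with no called interaction, the libraries of the lines did not overlap in 41.0% untreated and in 22.7% with TGFβ.

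The excess of the untreated class over the treated class was 5.37 to 1, and it ran from 2.87 to 8.50 over 24 alternatives. The lowest ratio came without WT-T3, where the treated class held 834 genes and the untreated class 2396. The treated class was also moved by over 1.5 times without WT-T2 (247) and without ED-T3 (218). The genes with a larger difference under TGFβ numbered 503 without WT-T3, 138 without WT-U3, 143 without ED-U2 and 129 without ED-T3. The class with opposite signs held 112 without WT-T2, 471 without WT-T3, and 144 and 106 without ED-T1 and ED-T3. The class with equal signs held 135 without WT-T2 and 139 and 144 without ED-T1 and ED-T3, and the class that passed in neither state 148 without ED-T3.

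**Figure D1:**
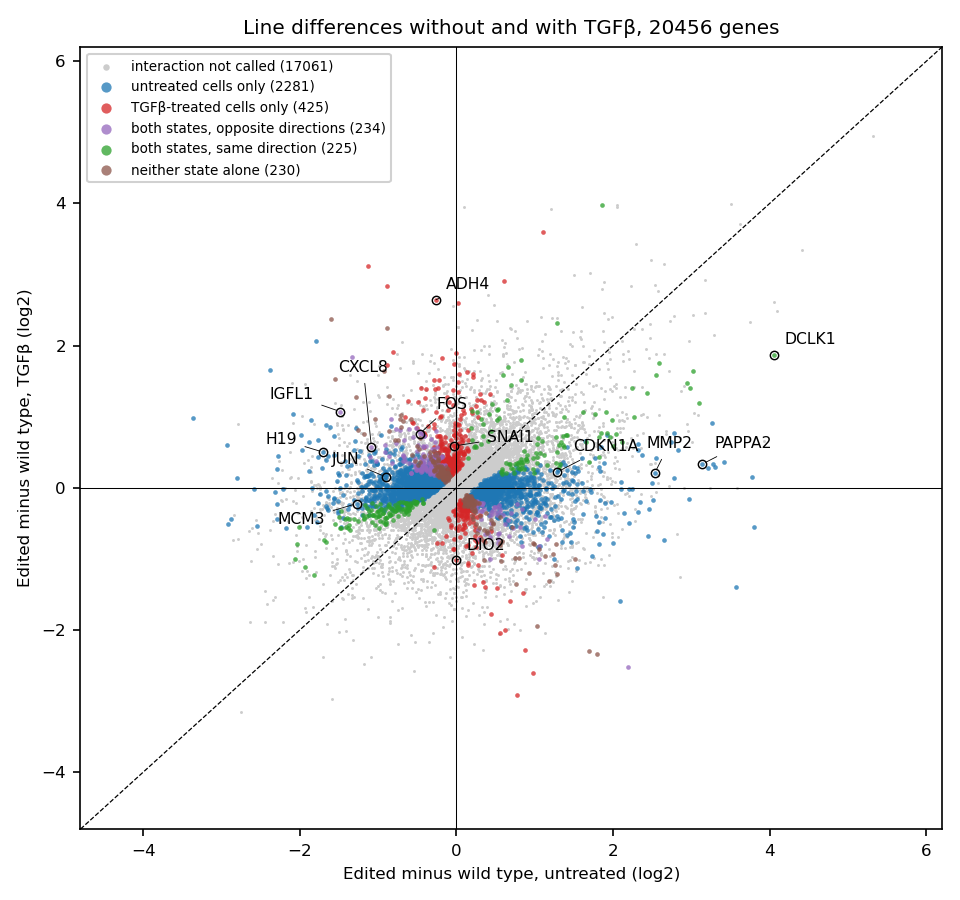
Each of 20456 genes is plotted by the log2 difference edited minus wild type in untreated cells (x axis) and with TGFβ (y axis), coloured by the state in which the line difference passed, with genes on the dashed line having an interaction of 0. The 2281 genes of the untreated class spread along the horizontal axis and the 425 of the treated class along the vertical axis.

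**Figure D2:**
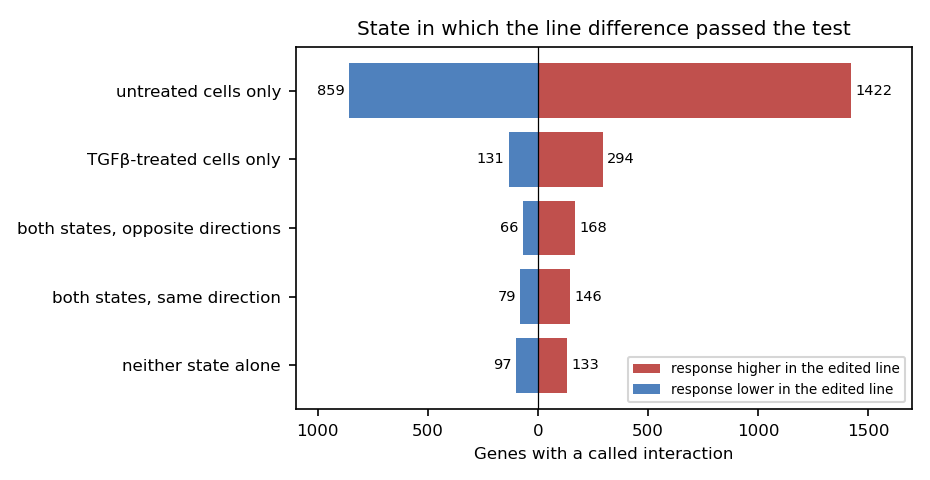
Bars count the genes with a called interaction (x axis) by the state in which the lines differed, to the right where the interaction was higher and to the left where it was lower in the edited line. The untreated class holds 1422 higher and 859 lower genes, against 294 and 131 in the treated class.

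Among 5 marker genes chosen for this comparison, 3 took their interaction from untreated cells and 2 from both states in opposite directions. CXCL8 (chr4:73740569-73743716), which encodes the neutrophil chemokine interleukin 8, was counted at 8057, 6845 and 6589 in wild type and at 2918, 3877 and 3363 in the edited line without TGFβ. With TGFβ, CXCL8 stood at 8654, 8589 and 8229 in wild type and at 12419, 11878 and 13679 in the edited line. The edited line was the lower untreated and the higher with TGFβ, with no overlap in either state. CXCL8 rose by 0.25 in wild type and by 1.91 in the edited line (log2), and the lines differed by -1.09 ± 0.09, adjusted p = 4.9e-07 untreated and 0.57 ± 0.09, adjusted p = 0.000919 with TGFβ. Its interaction was 1.66 ± 0.13, adjusted p = 2.38e-06, and the untreated difference was the larger. FOS (chr14:75278828-75282230), a subunit of AP-1, was counted at 16035, 12663 and 15678 in wild type and at 10282, 9637 and 12064 in the edited line without TGFβ. With TGFβ, FOS stood at 5638, 5157 and 5203 in wild type and at 9566, 8298 and 9256 in the edited line. It fell in both lines (-1.46 and -0.23). The edited line was lower untreated (-0.47 ± 0.09, adjusted p = 0.00126) and higher with TGFβ (0.76 ± 0.09, adjusted p = 8.63e-05), which made an interaction of 1.23 ± 0.13, adjusted p = 2.7e-05, and which difference was larger was not decided. The call and the class of CXCL8 and FOS were the same in the 24 alternatives.

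JUN (chr1:58780791-58784047), the other main AP-1 subunit, was counted at 11249.8, 11627 and 11727 in wild type and at 5607, 6857 and 6076 in the edited line without TGFβ. With TGFβ, JUN stood at 24047, 23789 and 23307 in wild type and at 26754, 25020.0 and 27506 in the edited line. The untreated edited line lay well below untreated wild type, while with TGFβ the libraries of the edited line lay a little above those of wild type. JUN rose in both lines (1.04 and 2.10), and its interaction of 1.06 ± 0.09, adjusted p = 5.08e-06 went with a difference of -0.90 ± 0.07, adjusted p = 9.29e-08 untreated and 0.16 ± 0.07, adjusted p = 0.155 with TGFβ. CDKN1A (chr6:36676463-36687332), the p53-induced inhibitor of cyclin-dependent kinases p21, was counted at 8677, 9722 and 8903 in wild type and at 21471, 22854 and 22058 in the edited line without TGFβ. With TGFβ, CDKN1A stood at 21677, 19761 and 18825 in wild type and at 24789, 21376 and 24082 in the edited line. Untreated libraries of the edited line reached the level that wild type reached only with TGFβ. CDKN1A rose by 1.14 in wild type and was at 0.08 in the edited line (adjusted p = 0.343), and the interaction was -1.06 ± 0.10, adjusted p = 7.48e-06. The lines differed by 1.28 ± 0.07, adjusted p = 4.32e-09 untreated and 0.22 ± 0.07, adjusted p = 0.0534 with TGFβ. The treated difference passed in 8 of 24 alternatives, with the same sign, among them without WT-T1 (interaction -1.01) or ED-T2 (-0.998). The untreated difference stayed the larger in the test of sizes in these.

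H19 (chr11:1995176-2001266), an imprinted non-coding RNA beside IGF2, was counted at 2361, 1820.0 and 2179 in wild type and at 672, 612 and 665 in the edited line without TGFβ. With TGFβ, H19 stood at 104, 48.9 and 42.02 in wild type and at 66.8, 77.5 and 119 in the edited line. It was high in untreated wild type, lower in the untreated edited line and low in both treated groups, whose libraries overlapped. The fall with TGFβ was -5.11 in wild type and -2.91 in the edited line, and the interaction 2.20 ± 0.38, adjusted p = 0.000953. The line difference was -1.70 ± 0.27, adjusted p = 0.000165 untreated and 0.50 ± 0.27, adjusted p = 0.259 with TGFβ, and the latter passed without WT-T1 (interaction 2.59) and without WT-T1 and ED-T1 together, an alternative chosen after seeing the data (2.77). In H19 the larger response to TGFβ in wild type went with a higher untreated level and low treated levels in both lines.

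**Figure D3:**
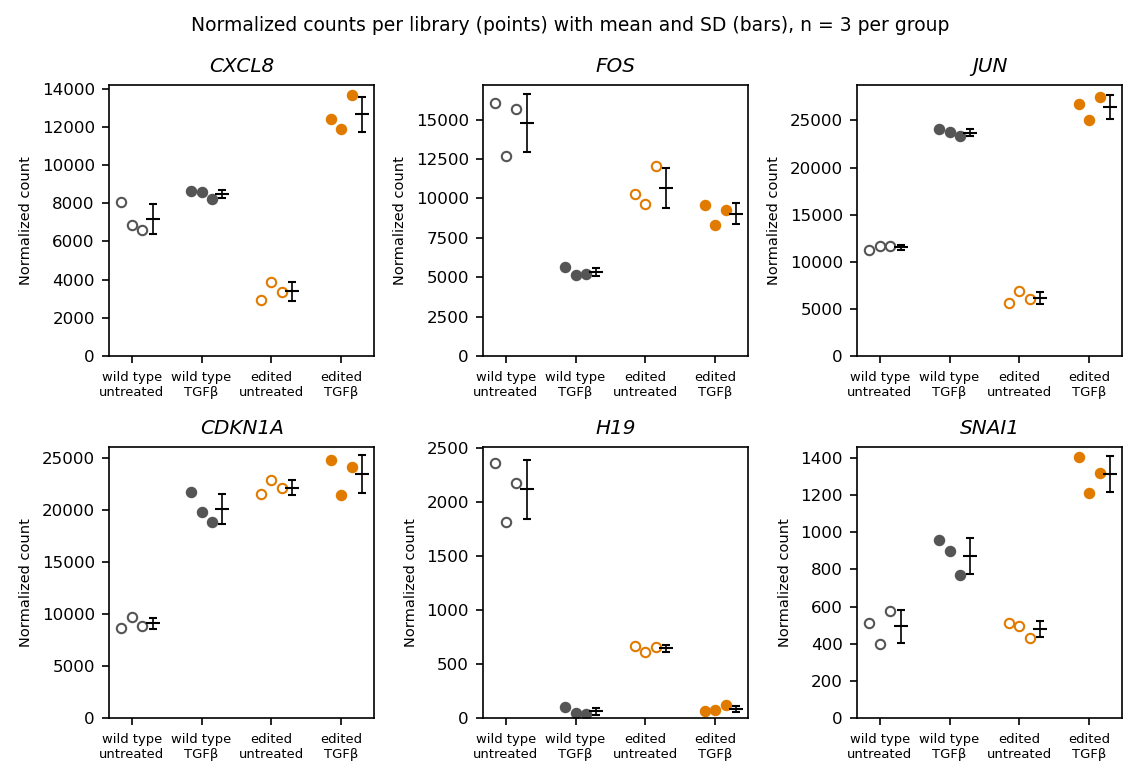
Points are normalized counts (y axis, linear, from 0) of each library in the 4 groups for CXCL8, FOS, JUN, CDKN1A, H19 and SNAI1, with mean and SD over 3 libraries at the side. JUN, CDKN1A and H19 are far apart between the lines in untreated cells, SNAI1 in treated cells, and CXCL8 and FOS in both with the order turned round.

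Among genes with a mean of at least 100, those with the largest interactions in the untreated class are described next, higher interactions first. AQP4, a water channel, was counted at 423, 335 and 408 in wild type and at 96.98, 98.7 and 119 in the edited line without TGFβ. With TGFβ, AQP4 stood at 52.8, 43.1 and 44.5 in wild type and at 48.02, 61.4 and 56.9 in the edited line. Its fall with TGFβ was -3.03 in wild type and -0.91 in the edited line, an interaction of 2.12 ± 0.26, adjusted p = 8.15e-05, from an untreated difference of -1.88 ± 0.19, adjusted p = 1.75e-06 against 0.24 ± 0.19, adjusted p = 0.467 with TGFβ. KIAA0101, which encodes a PCNA-associated factor of replicating cells, was counted at 1885, 1091 and 1554 in wild type and at 409, 317 and 523 in the edited line without TGFβ. With TGFβ, KIAA0101 stood at 2117, 2093 and 1789 in wild type and at 1949, 2036 and 2010.2 in the edited line. The treated libraries overlapped and the untreated ones were apart. KIAA0101 rose by 0.44 in wild type and by 2.29 in the edited line, an interaction of 1.85 ± 0.25, adjusted p = 0.000142. MYOM3, a sarcomere protein gene, had an untreated mean of 69.4 ± 1.62 (SD, n = 3, as for other means below) in wild type and 13.95 ± 5.04 in the edited line and reached 825 ± 71.2 and 609.9 ± 78.8 (interaction 1.86 ± 0.30, adjusted p = 0.000659), and its treated difference passed as well, with the same sign, with edgeR or DESeq2 (1.83 and 1.86).

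KIRREL3 and R3HDML belong to the same class but had few reads in untreated cells. With TGFβ, each library of the edited line lay above each library of wild type in both genes. Their treated differences of 0.45 ± 0.37 and 0.65 ± 0.45 did not pass. The fit takes the same spread for all groups, so scatter of low untreated values also enters the standard error of the treated difference. For these genes the class therefore does not show that the treated lines were alike. KIRREL3, an adhesion gene, stood at 25.9, 16.5 and 17.2 in untreated wild type and 12.4, 2.15 and 5.72 in the untreated edited line, and at 535 ± 32.6 and 731 ± 47.5 with TGFβ. Its interaction of 2.09 ± 0.52, adjusted p = 0.0114 became 1.31 with a pseudocount of 10, and with DESeq2 its treated difference passed with the opposite sign. R3HDML stood at 5.98, 0.824 and 6.45 and 2.06, 1.07 and 0, which overlap, and at 1673 ± 40.4 and 2637 ± 241 with TGFβ. The interaction of R3HDML (1.95 ± 0.64, adjusted p = 0.0475) was lost without WT-U1, WT-U3, WT-T1, WT-T2, WT-T3, ED-U2, ED-U3, ED-T1, ED-T2 or ED-T3 (interaction 1.51 to 2.03), and also with a pseudocount of 0.5, no filter, quantile normalization, TMM scaling, equal totals, robust variance, or without WT-T1 and ED-T1 together. With a pseudocount of 10 its interaction was 1.01, and there and with edgeR or DESeq2 its class was the treated one.

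Lower interactions of the untreated class were led by PAPPA2, a protease that releases insulin-like growth factors from a binding protein. PAPPA2 was counted at 5.98, 6.59 and 4.3 in wild type and at 49.5, 57.9 and 62.9 in the edited line without TGFβ. With TGFβ, PAPPA2 stood at 214, 247 and 238 in wild type and at 261, 292 and 331 in the edited line. Untreated, the edited line stood well above wild type, and the treated libraries of the lines stood near each other, those of the edited line at 261 to 331 and those of wild type at 214 to 247. It rose by 5.16 in wild type and by 2.35 in the edited line, with an interaction of -2.80 ± 0.30, adjusted p = 2.53e-05 (-1.77 with a pseudocount of 10). MMP2, a gelatinase of the extracellular matrix, was counted at 3.99, 0 and 1.07 in wild type and at 9.29, 10.7 and 15.5 in the edited line without TGFβ. With TGFβ, MMP2 stood at 4034, 4319.7 and 3681 in wild type and at 5015, 4375 and 4454 in the edited line. The untreated values rest on few reads, and the interaction of -2.33 ± 0.54, adjusted p = 0.00766 was -0.70 with a pseudocount of 10.

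SLC16A6, a monocarboxylate transporter family gene, was counted at 295, 362 and 386 in wild type and at 1049, 1255 and 1284 in the edited line without TGFβ. With TGFβ, SLC16A6 stood at 30.8, 51.8 and 28.6 in wild type and at 26.1, 22.6 and 32.99 in the edited line. It was higher in the untreated edited line, and treated libraries overlapped at a low level, so that the fall was -3.24 in wild type and -5.42 in the edited line (interaction -2.18 ± 0.31, adjusted p = 0.000246). ATOH8, a bHLH transcription factor gene, had the same form, with 425 ± 31.99 against 151 ± 17.3 untreated and 9.49 ± 3.73 against 12.8 ± 3.17 with TGFβ (interaction -1.92 ± 0.39, adjusted p = 0.00305). The antisense transcript TMEM92-AS1 averaged 71.1 ± 10.4 against 17.3 ± 8.55 untreated and 364 ± 43.6 against 367 ± 26.7 with TGFβ (interaction -2.11 ± 0.41, adjusted p = 0.00237). The strand setting of the counting was not given in the sources used here, so antisense reads are uncertain. COL22A1, a collagen gene, stood at 9.97, 0 and 8.59 and 26.8, 41.8 and 27.8 untreated and rose to 9606 ± 691 and 10529 ± 425. The interaction of COL22A1 (-2.65 ± 0.83, adjusted p = 0.0392) was lost without WT-T2, ED-U1, ED-U2, ED-U3, ED-T1, ED-T2 or ED-T3 (interaction -2.45 to -2.76), and with a pseudocount of 0.5, no filter, quantile normalization, robust variance, or without WT-T1 and ED-T1 together. It was -1.53 without WT-U2 and -1.29 with a pseudocount of 10.

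In the treated class the untreated difference did not pass and the difference with TGFβ did. DIO2, which encodes a deiodinase that activates thyroid hormone, was the clearest named case with a high count, and was counted at 6987, 7486 and 6793 in wild type and at 6742, 7365 and 7123 in the edited line without TGFβ. With TGFβ, DIO2 stood at 6206, 6323 and 6904 in wild type and at 3267, 3127 and 3176 in the edited line. Its untreated libraries overlapped, wild type was at -0.13 with TGFβ (adjusted p = 0.0748), and the edited line fell by 1.15. The lines differed by -0.0023 ± 0.06, adjusted p = 0.986 untreated and -1.02 ± 0.06, adjusted p = 4.88e-08 with TGFβ, an interaction of -1.02 ± 0.09, adjusted p = 2.68e-06. SULT1B1, a sulfotransferase gene, was counted at 23.9, 29.7 and 18.3 in wild type and at 10.3, 13.9 and 22.9 in the edited line without TGFβ. With TGFβ, SULT1B1 stood at 946, 956 and 1261 in wild type and at 2339.6, 2453 and 2527 in the edited line. It rose by 5.42 in wild type and 7.26 in the edited line (interaction 1.84 ± 0.33, adjusted p = 0.00142). The untreated difference of SULT1B1 (-0.62 ± 0.24, adjusted p = 0.0564) passed with the opposite sign in 6 of 24 alternatives, among them without WT-U3, WT-T3 or ED-U3 (interaction 1.98 to 2.14). PTPRE, a receptor-type phosphatase, rose to 147 ± 45.5 in wild type and 408 ± 42.7 in the edited line from 26.7 ± 3.51 and 21.7 ± 2.99 (interaction 1.81 ± 0.34, adjusted p = 0.00204).

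ADH4, an alcohol dehydrogenase, was counted at 449, 443 and 373 in wild type and at 361, 352 and 338 in the edited line without TGFβ. With TGFβ, ADH4 stood at 4.4, 1.92 and 0 in wild type and at 16.7, 11.8 and 15.9 in the edited line. It fell in both lines and fell less far in the edited line, and the interaction of 2.91 ± 0.61, adjusted p = 0.00371 was 1.30 with a pseudocount of 10. The treated values of ADH4 rest on few reads. AMTN, an enamel protein gene, was at 0 in the 6 untreated libraries and at 109, 77.7 and 105 in treated wild type and 367, 324 and 392 in the treated edited line. No fold is given for AMTN against untreated cells. Its interaction equals its difference with TGFβ (1.89 ± 0.53, adjusted p = 0.0213). That call was lost without WT-T2, ED-T1 or ED-T3 (interaction 1.74 to 1.88), without WT-T1 and ED-T1 together, and with a pseudocount of 0.5, no filter, edgeR (adjusted p = 1) or DESeq2 (adjusted p = 0.461). LINC00284, a long non-coding RNA, fell from 742 ± 66.5 and 751 ± 47.7 to 2.2, 11.5 and 0 in wild type and 20.9, 17.2 and 21.6 in the edited line (interaction 2.59 ± 0.80, adjusted p = 0.0373). The LINC00284 call was lost without WT-U1, WT-U2, WT-U3, ED-U1, ED-U2, ED-U3, ED-T1, ED-T2 or ED-T3 (interaction 2.53 to 2.68), and with a pseudocount of 0.5, no filter, robust variance, or without WT-T1 and ED-T1 together. It was 1.70 without WT-T3 and 1.09 with a pseudocount of 10. OR51E1, an olfactory receptor gene that fell in both lines, averaged, in the edited line against wild type, 139 ± 12.2 against 219 ± 11.4 untreated and 74.1 ± 27.8 against 36.4 ± 13.3 with TGFβ (interaction 1.65 ± 0.38, adjusted p = 0.00687). The class of OR51E1 changed in 9 of 24 alternatives, among them without WT-T1, WT-T2, WT-T3 or ED-T1 (interaction 1.37 to 1.93).

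Among named genes with a mean of at least 100, the leading lower interactions of the treated class ran from -0.91 to -1.03. CNN1 (-2.62), with a mean of 64.6, is given with its list below. PSG4, a pregnancy-specific glycoprotein, was counted at 165, 175 and 177 in wild type and at 222, 247 and 162 in the edited line without TGFβ. With TGFβ, PSG4 stood at 348, 395 and 330.3 in wild type and at 222, 177 and 233 in the edited line. It rose in wild type (1.04) and was at 0.02 in the edited line (adjusted p = 0.939), with an interaction of -1.03 ± 0.23, adjusted p = 0.00647. PSG genes are near-identical copies, so reads may be split among them and the PSG4 value is uncertain. LRRC46 averaged, in the edited line against wild type, 212 ± 7.76 against 173 ± 22.3 untreated and 135 ± 9.13 against 219 ± 27.1 with TGFβ (interaction -0.99 ± 0.21, adjusted p = 0.00431), and passed in neither state without WT-T1 and ED-T1 together. AP3B2, KCNAB3 and YJEFN3 had interactions of -0.95 ± 0.31, adjusted p = 0.0481, -0.94 ± 0.29, adjusted p = 0.0331 and -0.91 ± 0.26, adjusted p = 0.0261. The AP3B2 call was lost without WT-U1, WT-U3, WT-T1, WT-T2, ED-U1, ED-U2, ED-T2 or ED-T3 (interaction -0.76 to -0.99), and with no filter or quantile normalization. The KCNAB3 call was lost without WT-U1, WT-U3, WT-T2, ED-U1, ED-T1 or ED-T3 (interaction -0.76 to -0.99), and the YJEFN3 call without WT-U1, WT-T2, ED-U1, ED-U2, ED-T1 or ED-T3 (interaction -0.75 to -0.88). Both were also lost without WT-T1 and ED-T1 together.

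In 234 genes (1.14% of those tested) the edited line was on 1 side of wild type untreated and on the other side with TGFβ, and both differences passed. Genes of other classes can also change side, as JUN did (-0.90 untreated and 0.16 with TGFβ). IGFL1, a secreted insulin growth factor-like ligand, was counted at 12.96, 20.6 and 19.3 in wild type and at 10.3, 3.22 and 4.9 in the edited line without TGFβ. With TGFβ, IGFL1 stood at 3313, 3334 and 2475 in wild type and at 6642, 6081 and 6283 in the edited line. It rose by 7.36 in wild type and 9.92 in the edited line (interaction 2.55 ± 0.38, adjusted p = 0.000364). IGFL genes resemble each other, so reads may be shared among them. For IGFL1, the treated difference (1.07 ± 0.27, adjusted p = 0.017) was lost without ED-T1 or ED-T3 (interaction 2.52 to 2.56) or without WT-T1 and ED-T1 together (2.59). TNFRSF19, a TNF receptor family member, was counted at 277, 343 and 273 in wild type and at 153, 187 and 181 in the edited line without TGFβ. With TGFβ, TNFRSF19 stood at 1022, 967 and 1157 in wild type and at 1881, 1905 and 1784 in the edited line. It rose by 1.82 in wild type and 3.42 in the edited line, with -0.77 ± 0.11, adjusted p = 9.95e-05 between the lines untreated and 0.83 ± 0.11, adjusted p = 0.000224 with TGFβ (interaction 1.60 ± 0.16, adjusted p = 1.48e-05). METTL7A, a methyltransferase of lipid droplets and the endoplasmic reticulum, averaged, in the edited line against wild type, 267 ± 61.1 against 471 ± 41.3 untreated and 119 ± 23.05 against 61.1 ± 18.7 with TGFβ (interaction 1.81 ± 0.32, adjusted p = 0.00106). The untreated difference of METTL7A was lost without ED-U2 (interaction 1.62), and the treated one without WT-T1 and ED-T1 together (1.55).

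LINC00707, a long non-coding RNA, was counted at 424, 477 and 374 in wild type and at 839, 999.7 and 941 in the edited line without TGFβ. With TGFβ, LINC00707 stood at 3560.2, 3281 and 3382 in wild type and at 2626, 2573 and 2530.0 in the edited line. It was higher in the edited line untreated (1.13 ± 0.09, adjusted p = 2.16e-07) and lower with TGFβ (-0.40 ± 0.09, adjusted p = 0.00833), an interaction of -1.53 ± 0.13, adjusted p = 2.59e-06. BEX2 was counted at 682, 708 and 728 in wild type and at 1326, 1605 and 1329.9 in the edited line without TGFβ. With TGFβ, BEX2 stood at 209.9, 197 and 169 in wild type and at 164, 128 and 133 in the edited line. It fell in both lines (-1.88 and -3.32, interaction -1.44 ± 0.18, adjusted p = 7.99e-05). For BEX2, the treated difference was lost without WT-T1, WT-T2, ED-T2 or ED-T3 (interaction -1.37 to -1.42). MYH3, a myosin heavy chain of embryonic muscle, rose in wild type (0.75) and fell in the edited line (-1.12), with an interaction of -1.87 ± 0.29, adjusted p = 0.000484. GRIN2C, a glutamate receptor subunit, rose in wild type (1.62) and was at -0.03 in the edited line (adjusted p = 0.893), with an interaction of -1.66 ± 0.29, adjusted p = 0.000953. For MYH3, the treated difference was lost without WT-T2, WT-T3, ED-T1 or ED-T3 (interaction -1.74 to -1.88), and with no filter, and that of GRIN2C without ED-T1 (interaction -1.54). Both were lost without WT-T1 and ED-T1 together (-1.80 and -1.55).

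For 225 genes (1.10%) the lines differed in the same direction in both states and by unlike amounts, and in 195 of these the untreated difference was the larger. DCLK1, a microtubule-associated kinase, was counted at 41.9, 24.7 and 21.5 in wild type and at 512, 462 and 481 in the edited line without TGFβ. With TGFβ, DCLK1 stood at 97.8, 123 and 125 in wild type and at 408, 413 and 446 in the edited line. It rose in wild type (1.99) and was at -0.20 in the edited line (adjusted p = 0.416), so the gap of 4.06 ± 0.20, adjusted p = 2.16e-09 untreated closed in part to 1.87 ± 0.20, adjusted p = 2.46e-05 (interaction -2.19 ± 0.29, adjusted p = 0.000137). CALCB, a calcitonin gene-related peptide, averaged, in the edited line against wild type, 2026 ± 282 against 243 ± 78.2 untreated and 197 ± 7.57 against 87.5 ± 20.6 with TGFβ (interaction -1.90 ± 0.29, adjusted p = 0.00038). SEMA5A, a guidance molecule, averaged 370.4 ± 18.9 against 47.1 ± 2.81 untreated and 75.1 ± 23.5 against 25.99 ± 6.69 with TGFβ (interaction -1.48 ± 0.35, adjusted p = 0.00913). EMP2, a tetraspan membrane protein, was counted at 5226, 5000.1 and 4733 in wild type and at 1891, 1715 and 1796 in the edited line without TGFβ. With TGFβ, EMP2 stood at 3631, 3627 and 3389 in wild type and at 2899, 2634 and 2981 in the edited line. It fell in wild type (-0.49) and rose in the edited line (0.66), with an interaction of 1.15 ± 0.10, adjusted p = 2.56e-06. ANKS1B averaged 40.8 ± 7.41 against 169 ± 6.3 untreated and 109.9 ± 22.5 against 189 ± 23.9 with TGFβ (interaction 1.25 ± 0.28, adjusted p = 0.00642), and its treated difference was lost without WT-T2 or ED-T2 (interaction 1.31 to 1.41).

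**Figure D4:**
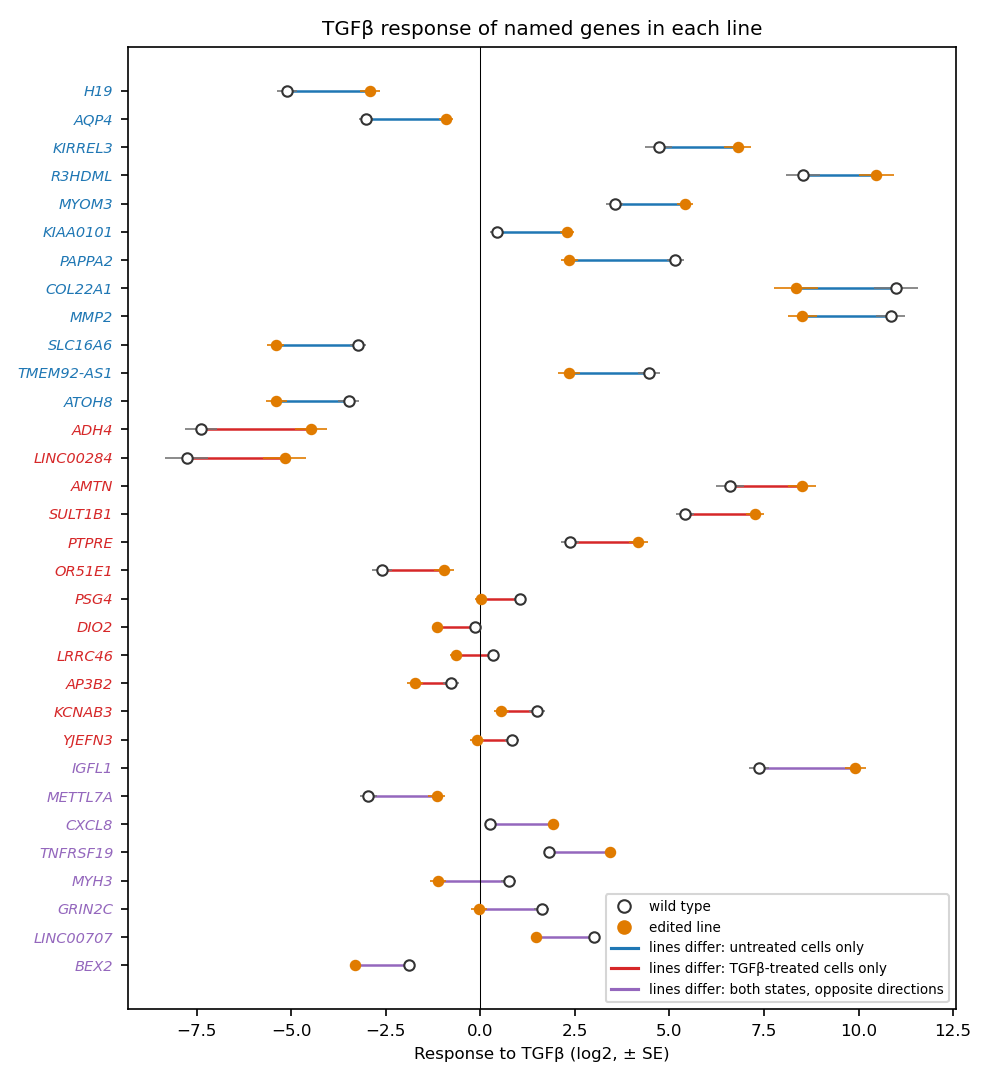
Open points are the log2 response to TGFβ in wild type and filled points that in the edited line (x axis, bars SE of the fit), with 1 row for each named gene of 3 classes and the joining line coloured by class. TNFRSF19 lies at 1.82 and 3.42, DIO2 at -0.13 and -1.15, and PAPPA2 at 5.16 and 2.35, while the places of genes near 0 in a group, such as AMTN, depend on the pseudocount.

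Chemokines, which draw leukocytes into tissue, were among the lists in which the share of called members lay furthest above the 16.6% of all genes tested. Their interaction was called 7 higher and 1 lower of 12 tested (66.7%), with median interaction 1.04, -1.06 untreated and -0.07 with TGFβ. The same medians over all genes tested were 0.02, 0.0021 and 0.01. The called share grew with level, which matters for this and the lists below. It was 15.6% over genes with a mean of 100 to 1000, 25.9% at 1000 to 10000 and 30.1% at 10000 or more. CCL2, which attracts monocytes, was counted at 2015, 1489.6 and 1450.2 in wild type and at 473, 483 and 481 in the edited line without TGFβ. With TGFβ, CCL2 stood at 35108, 29694 and 30289 in wild type and at 28175, 25398 and 28323 in the edited line. It rose in both lines and by more in the edited line (4.27 and 5.83), which was lower untreated, and the interaction was 1.56 ± 0.14, adjusted p = 7.01e-06. CCL20, a ligand of CCR6, was counted at 6182, 3908 and 5153 in wild type and at 1113, 1291 and 1315 in the edited line without TGFβ. With TGFβ, CCL20 stood at 975, 851 and 821 in wild type and at 568, 583 and 653 in the edited line. It fell in both lines (interaction 1.46 ± 0.19, adjusted p = 0.000103). For CCL20, the treated difference was lost without WT-T1 and ED-T1 together (1.57). CXCL1, a CXCR2 ligand like CXCL8, averaged, in the edited line against wild type, 1097 ± 138 against 2231 ± 466 untreated and 1551 ± 112 against 1235 ± 127 with TGFβ, falling in wild type (-0.84) and rising in the edited line (0.51), with an interaction of 1.34 ± 0.18, adjusted p = 0.000171. CXCL1 resembles CXCL2 and CXCL3, and reads may be split among them. Of the 8 called chemokines, 5 belonged to the untreated class, and in 7 the untreated difference was tested as the larger. The counts were also 7 and 1 under quantile normalization and equal totals.

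From the 7 chemokines with a higher interaction, the start regions of CXCL8 and CXCL1 are shown (RefSeq, GRCh38.p14, 250 bases before and 50 after the start, plus strand, chr4:73740319-73740618 and chr4:73869143-73869442). Capitals mark GGNNTTTCC, an NF-kB-like motif, and TGANTCA, an AP-1 motif, searched on both strands.
CXCL8 promoter: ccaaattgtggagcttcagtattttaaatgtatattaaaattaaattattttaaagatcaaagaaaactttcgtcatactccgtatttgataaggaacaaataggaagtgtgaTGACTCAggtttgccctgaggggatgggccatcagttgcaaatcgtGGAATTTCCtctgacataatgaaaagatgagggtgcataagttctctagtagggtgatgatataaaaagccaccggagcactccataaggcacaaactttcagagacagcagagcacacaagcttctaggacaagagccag
CXCL1 promoter: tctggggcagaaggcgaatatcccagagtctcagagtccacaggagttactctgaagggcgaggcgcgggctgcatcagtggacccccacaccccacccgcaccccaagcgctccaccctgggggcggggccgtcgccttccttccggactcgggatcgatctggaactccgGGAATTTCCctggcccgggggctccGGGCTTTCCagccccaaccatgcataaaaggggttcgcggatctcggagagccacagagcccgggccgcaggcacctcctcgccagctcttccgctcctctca
The NF-kB-like motif was present in 7 of the 8 chemokine promoters that matched the table and in 6.26% of 27305 RefSeq promoters of the same length. It was in 6 of the 6 with a higher interaction, which hardly sets these apart within a list where 7 of 8 had it. In the list of NF-kB feedback and cytokine genes the motif was in 8 of 18, and in 6 of the 8 with a higher interaction. The AP-1 motif was in 1 of the 8 chemokine promoters and in 7.76% of all. A match describes letters and is not evidence of a bound factor.

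NF-kB feedback and cytokine genes were called 10 higher and 3 lower of 25 tested (52%, against 16.6% over all genes tested). Their median interaction was 0.38, with -0.33 untreated and -0.02 with TGFβ. ICAM1, a leukocyte adhesion receptor, averaged, in the edited line against wild type, 517 ± 59.6 against 1469 ± 112 untreated and 841 ± 102 against 1053 ± 82.7 with TGFβ (interaction 1.18 ± 0.15, adjusted p = 0.000125). For ICAM1, the treated difference passed, with the same sign, in 6 of 24 alternatives, among them without WT-T3 or ED-T3 (interaction 1.09 to 1.12). PTGS2, the inducible cyclooxygenase, fell in both lines and averaged, in the edited line against wild type, 69807 ± 4638 against 99878 ± 4981 untreated and 14071 ± 537 against 11477 ± 1563 with TGFβ (interaction 0.82 ± 0.12, adjusted p = 0.000247). Its treated difference of 0.30 ± 0.08, adjusted p = 0.0255 was lost without WT-T1, WT-T2, ED-T2 or ED-T3 (interaction 0.75 to 0.82), without WT-T1 and ED-T1 together (0.78) and with equal totals (0.77). The cytokine IL11, a known TGFβ target, had a lower interaction and was counted at 1614, 1649 and 1618 in wild type and at 6120.0, 6653 and 6269 in the edited line without TGFβ. With TGFβ, IL11 stood at 17588, 16293 and 16985 in wild type and at 29244, 25738 and 28621 in the edited line. IL11 rose by 3.38 in wild type and 2.13 in the edited line, and its gap narrowed from 1.96 ± 0.06, adjusted p = 1.4e-11 to 0.72 ± 0.06, adjusted p = 1.6e-06 (interaction -1.25 ± 0.08, adjusted p = 7.94e-07). LCN2, an iron-binding lipocalin, was higher in the untreated edited line (0.66 ± 0.10, adjusted p = 7.44e-05) and lower in the treated one (-0.45 ± 0.10, adjusted p = 0.00563), an interaction of -1.11 ± 0.13, adjusted p = 6.9e-05.

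Growth factors and stress induce AP-1 and early response genes within minutes. These genes were called 11 higher and 2 lower of 22 tested (59.1%, against 16.6% over all genes tested). Their medians were 0.38 for the interaction, -0.28 for the untreated line difference and 0.13 with TGFβ, and of the 13 called 9 belonged to the untreated class and 4 to the class with opposite signs. FOSB, an AP-1 subunit, averaged, in the edited line against wild type, 772 ± 35.2 against 1694 ± 298 untreated and 4274 ± 812 against 4529 ± 769.7 with TGFβ (interaction 1.03 ± 0.20, adjusted p = 0.00239). EGR2, a zinc finger factor, averaged 75.1 ± 14.99 against 142 ± 28.1 untreated and 883 ± 78.99 against 577 ± 16.9 with TGFβ (interaction 1.52 ± 0.23, adjusted p = 0.000413). For EGR2, the treated difference was lost without WT-T2, ED-T1 or ED-T3 (interaction 1.45 to 1.56) or without WT-T1 and ED-T1 together (1.58). The MAPK feedback genes, which shut off the kinases upstream of AP-1, were called 6 higher and 1 lower of 17 tested (41.2%, against 16.6%). DUSP1, a phosphatase of p38 and JNK, was counted at 22078, 19141 and 20499 in wild type and at 13426, 14182 and 14545 in the edited line without TGFβ. With TGFβ, DUSP1 stood at 18157, 16429 and 14928 in wild type and at 27937, 25116 and 27671 in the edited line. It fell in wild type (-0.32) and rose in the edited line (0.94), with -0.55 ± 0.08, adjusted p = 4.61e-05 between the lines untreated and 0.71 ± 0.08, adjusted p = 1.98e-05 with TGFβ (interaction 1.26 ± 0.11, adjusted p = 2.68e-06). DUSP10 averaged 443 ± 52.3 against 646 ± 32.05 untreated and 1141 ± 57.3 against 895 ± 31.01 with TGFβ (interaction 0.90 ± 0.13, adjusted p = 0.000335), and its treated difference was lost without WT-T2, ED-T1, ED-T2 or ED-T3 (interaction 0.86 to 0.93) or without WT-T1 and ED-T1 together (0.85). The 1 lower member of the MAPK list was not called without WT-U1, WT-T2, ED-U1, or ED-T1 or ED-T3.

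The p53 targets, genes of arrest and DNA damage repair, were called 0 higher and 15 lower of 22 tested (68.2%, against 6.02% lower over all genes tested). The count of 0 higher was also 0 at an unadjusted p under 0.05 and with edgeR or DESeq2, and the lower count 15 with each of these. The list's median line difference was 0.33 untreated and 0.12 with TGFβ, and 10 of the 15 belonged to the untreated class. Beside CDKN1A, the ferredoxin reductase FDXR averaged, in the edited line against wild type, 5781 ± 156 against 4152 ± 79.3 untreated and 4512 ± 232 against 5285 ± 704 with TGFβ, rising in wild type (0.34) and falling in the edited line (-0.36), with an interaction of -0.70 ± 0.11, adjusted p = 0.000513. For FDXR, the treated difference passed with the opposite sign in 4 of 24 alternatives, among them without WT-T3 (interaction -0.79). ZMAT3, an RNA-binding p53 target, averaged 4319 ± 269 against 2114 ± 142 untreated and 6390.4 ± 255 against 5025 ± 505 with TGFβ (interaction -0.68 ± 0.11, adjusted p = 0.000544). In both lines ZMAT3 rose with TGFβ (1.25 and 0.57).

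DNA replication genes had the largest share of called interactions of the 24 lists, 18 higher and 1 lower of 26 tested (73.1%). The share was 16.6% over all genes tested, 25.9% over those with a mean of 1000 to 10000 and 30.1% at 10000 or more. The list's median interaction was 0.55, with -0.92 untreated and -0.31 with TGFβ. Of the 19 called, 14 differed in both states in the same direction, 4 in the untreated state and 1 in the treated state, and in 18 the untreated difference was the larger. The lower count was 2 without WT-T3. E2F1, the transcription factor that switches on replication genes, was counted at 4016, 3222 and 3905 in wild type and at 1470.2, 1345 and 1341 in the edited line without TGFβ. With TGFβ, E2F1 stood at 3396, 3147 and 2864 in wild type and at 2348, 2231 and 2340.1 in the edited line. The untreated edited line lay far below the other 3 groups, and E2F1 fell in wild type (-0.24) and rose in the edited line (0.74), with an interaction of 0.98 ± 0.12, adjusted p = 8.15e-05. GINS2, a subunit of the replication helicase, was counted at 3498, 2778 and 3222 in wild type and at 1153, 1068 and 1135 in the edited line without TGFβ. With TGFβ, GINS2 stood at 3906, 3818 and 3143 in wild type and at 2812, 2516 and 2801 in the edited line. It was at 0.19 in wild type (adjusted p = 0.0851) and rose by 1.27 in the edited line (interaction 1.08 ± 0.13, adjusted p = 7.74e-05). For GINS2, the treated difference was lost without WT-T2 (interaction 1.12). CDT1, which loads the helicase, averaged, in the edited line against wild type, 989.7 ± 51.4 against 2107 ± 274 untreated and 2355 ± 128 against 2419 ± 379.6 with TGFβ (interaction 1.05 ± 0.16, adjusted p = 0.000326). The helicase subunit MCM3 averaged 5463 ± 148 against 13248 ± 1476 untreated and 11539 ± 312 against 13463 ± 587 with TGFβ (interaction 1.05 ± 0.10, adjusted p = 8.55e-06). For MCM3, the treated difference (-0.22 ± 0.07, adjusted p = 0.0534) passed, with the same sign, in 11 of 24 alternatives, among them without WT-U1, WT-U2 or WT-T3 (interaction 0.97 to 1.14).

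From the 18 replication genes with a higher interaction, the start regions of E2F1 and GINS2 are shown (RefSeq, GRCh38.p14, minus strand, chr20:33686336-33686635 and chr16:85688905-85689204, 250 bases before and 50 after the start). Capitals mark the E2F-like motif TTTNNCGC on either strand. E2F1 held 4 matches, of which some overlap in 1 run of capitals, and GINS2 held 1.
E2F1 promoter: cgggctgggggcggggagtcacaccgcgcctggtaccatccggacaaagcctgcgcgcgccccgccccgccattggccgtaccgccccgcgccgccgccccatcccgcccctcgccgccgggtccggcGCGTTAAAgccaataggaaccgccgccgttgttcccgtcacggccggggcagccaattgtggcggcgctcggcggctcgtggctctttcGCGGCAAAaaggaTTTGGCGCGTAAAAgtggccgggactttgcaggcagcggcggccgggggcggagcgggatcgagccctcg
GINS2 promoter: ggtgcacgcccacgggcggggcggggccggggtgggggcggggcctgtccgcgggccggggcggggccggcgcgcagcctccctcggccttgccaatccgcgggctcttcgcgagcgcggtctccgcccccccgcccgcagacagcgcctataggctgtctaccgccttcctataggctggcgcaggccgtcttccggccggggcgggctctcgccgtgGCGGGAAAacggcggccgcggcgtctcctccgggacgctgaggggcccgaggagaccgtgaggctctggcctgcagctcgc
The motif was in 16 of the 22 replication gene promoters that matched the table and in 6.90% of all 27305 promoters. It was in 10 of the 14 with a higher interaction, a share of 71.4% beside 72.7% of the tested list promoters. The motif thus did not mark the genes with a higher interaction within the list. As above, a match describes letters and is not evidence of a bound factor.

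Genes of TGFβ signalling itself were called 4 higher and 3 lower of 27 tested (25.9%), beside 16.6% over all genes tested and 25.9% over the 7295 genes with a mean of 1000 to 10000. The 4 higher became 7 and 9 without WT-T1 and WT-T3 and 8 with DESeq2. The ligand TGFB2 averaged, in the edited line against wild type, 2211 ± 50.5 against 3472 ± 90.9 untreated and 7506 ± 555 against 7755 ± 990.4 with TGFβ (interaction 0.61 ± 0.12, adjusted p = 0.00196). SMAD4, the common partner of receptor SMADs, averaged 5178 ± 566 against 7062 ± 715 untreated and 6032 ± 318 against 5719.9 ± 127 with TGFβ (interaction 0.52 ± 0.12, adjusted p = 0.00587). LTBP1, which stores latent TGFβ in the matrix, averaged 2194 ± 163 against 2955 ± 69.9 untreated and 9861 ± 398 against 9597 ± 1341 with TGFβ (interaction 0.48 ± 0.12, adjusted p = 0.0113). In TGFB2, SMAD4 and LTBP1 the untreated difference was tested as the larger.

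EMT transcription factors were called 4 higher and 0 lower of 14 tested (28.6%). Over all genes tested 16.6% were called. The share was 15.6% at a mean of 100 to 1000, 25.9% at 1000 to 10000 and 30.1% at 10000 or more. Members spanned these levels, with means of 791 for SNAI1, 3544 for HMGA2 and 17252 for SOX4. The count of 0 lower was 1 at an unadjusted p under 0.05 and 0 with edgeR or DESeq2, and the higher count was 2 without WT-U1 or WT-U3, WT-T2, or ED-T1 or ED-T3. Besides SNAI1, SOX4 averaged, in the edited line against wild type, 5335 ± 343 against 7231 ± 262 untreated and 30502 ± 1276 against 25941 ± 252 with TGFβ (interaction 0.67 ± 0.08, adjusted p = 7.2e-05). For SOX4, the treated difference was lost without WT-T2 or ED-T3 (interaction 0.64 to 0.68). The chromatin protein gene HMGA2 averaged 1568 ± 48.4 against 2707 ± 25.6 untreated and 4532 ± 167 against 5367 ± 239 with TGFβ (interaction 0.54 ± 0.08, adjusted p = 0.000368), and its treated difference was lost without WT-T2 (interaction 0.55).

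Epithelial junction and keratin genes were called 8 higher and 2 lower of 30 tested (33.3%). The share was 16.6% over all genes tested and 21.4% over protein-coding genes. The higher count was 6 under quantile normalization and equal totals. The lower count was 4 without WT-T1 or WT-T3 or ED-T1, and 6 with DESeq2 or without WT-T1 and ED-T1 together. KRT80, a keratin, averaged, in the edited line against wild type, 16853 ± 2544 against 6498 ± 1287 untreated and 20901 ± 619.6 against 16692 ± 731 with TGFβ (interaction -1.06 ± 0.16, adjusted p = 0.000424). For KRT80, the treated difference passed, with the same sign, in 4 of 24 alternatives, among them without WT-U1 or WT-U2 (interaction -0.93 to -1.21). The desmosome and adherens junction protein gene JUP fell in wild type (-0.57) and was at 0.04 in the edited line (adjusted p = 0.642), with an interaction of 0.61 ± 0.10, adjusted p = 0.000472. EPCAM, an epithelial adhesion molecule, fell in both lines (-0.86 and -0.25, interaction 0.60 ± 0.13, adjusted p = 0.00371). The edited line was lower untreated and higher with TGFβ, and this class changed in 12 of 24 alternatives, among them without WT-U1, WT-U2, WT-U3, WT-T2, ED-U1, ED-U2, ED-U3, ED-T1 or ED-T3 (interaction 0.55 to 0.61).

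Mesenchymal and matrix genes were called 7 higher and 6 lower of 33 tested (39.4%, against 16.6% over all genes tested). After equal totals they were called 6 higher and 8 lower. CNN1, a smooth muscle actin-binding protein, was counted at 7.98, 14.01 and 11.8 in wild type and at 10.3, 25.7 and 19.6 in the edited line without TGFβ. With TGFβ, CNN1 stood at 215, 174 and 161 in wild type and at 57.4, 37.7 and 40.95 in the edited line. It rose in wild type (3.93) and less in the edited line (1.31), an interaction of -2.62 ± 0.49, adjusted p = 0.00167 that came from the treated state (-2.003 ± 0.34, adjusted p = 0.00126). Without ED-U1 (interaction -2.97) the untreated difference of CNN1 passed with the opposite sign. COL4A2, a basement membrane collagen, was counted at 1678, 1747 and 1791 in wild type and at 4369, 3885 and 4109 in the edited line without TGFβ. With TGFβ, COL4A2 stood at 122183, 136892 and 146347 in wild type and at 135658, 140253 and 136920.0 in the edited line. Treated libraries overlapped, and the untreated edited line was above untreated wild type, which gave an interaction of -1.21 ± 0.09, adjusted p = 1.91e-06. ITGB3, an integrin subunit, averaged, in the edited line against wild type, 20.8 ± 4.1 against 43.4 ± 18.7 untreated and 534 ± 64.6 against 324 ± 74.02 with TGFβ (interaction 1.71 ± 0.38, adjusted p = 0.00559), and its class changed without WT-U1 or ED-U1 (interaction 1.38 to 1.56), with a pseudocount of 10, and with edgeR or DESeq2.

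Cholesterol and fatty acid synthesis genes were called 12 higher and 0 lower of 31 tested (38.7%, against 10.6% higher over all genes tested), with median interaction 0.20, -0.30 untreated and -0.06 with TGFβ. The count of 0 lower was 1 at an unadjusted p under 0.05, 0 with edgeR or DESeq2, and 1 without WT-T1 or without WT-T1 and ED-T1 together. FADS2, a fatty acid desaturase, averaged, in the edited line against wild type, 13678 ± 399.8 against 30245 ± 3041 untreated and 32054 ± 3093 against 38810.0 ± 2663 with TGFβ (interaction 0.86 ± 0.12, adjusted p = 0.000163). Its treated difference of -0.28 ± 0.08, adjusted p = 0.0384 was lost without WT-U3, WT-T1, WT-T2, ED-U1, ED-U2, ED-U3, ED-T2 or ED-T3 (interaction 0.83 to 0.94), without WT-T1 and ED-T1 together (0.87) and with no filter (0.86). SCD, another desaturase, averaged 56556 ± 3265 against 99710.5 ± 4969 untreated and 134565 ± 8812 against 149735 ± 5748 with TGFβ (interaction 0.66 ± 0.10, adjusted p = 0.000376).

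The IGF list, chosen around H19, was called 3 higher and 3 lower of 18 tested (33.3%). The share was 16.6% over all genes tested and 21.4% over protein-coding genes. The lower count of the IGF list was 5 without WT-T1. IGFBP3, the main IGF carrier, was counted at 42297, 38850.1 and 38781 in wild type and at 83115, 78479 and 82616 in the edited line without TGFβ. With TGFβ, IGFBP3 stood at 98882, 101149 and 76187 in wild type and at 80792, 80009 and 77316 in the edited line. The untreated edited line stood near the level of the treated groups, and IGFBP3 rose in wild type (1.19) and was at -0.04 in the edited line (adjusted p = 0.739), with an interaction of -1.23 ± 0.12, adjusted p = 1.48e-05. For IGFBP3, the treated difference passed with the opposite sign without WT-T3 (interaction -1.36). IGFBP1, a carrier induced by stress and fasting, was counted at 1736, 1500.3 and 1575 in wild type and at 6182, 6515 and 6449.9 in the edited line without TGFβ. With TGFβ, IGFBP1 stood at 1109, 1013 and 704 in wild type and at 1478, 1229.7 and 1458 in the edited line. It fell in both lines (interaction -1.41 ± 0.18, adjusted p = 0.00011). IRS1, an adaptor of the insulin and IGF receptors, averaged, in the edited line against wild type, 4556 ± 214 against 5819 ± 178 untreated and 9044 ± 462 against 6956 ± 475 with TGFβ, lower untreated and higher with TGFβ (interaction 0.73 ± 0.09, adjusted p = 7.41e-05).

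**Figure D5:**
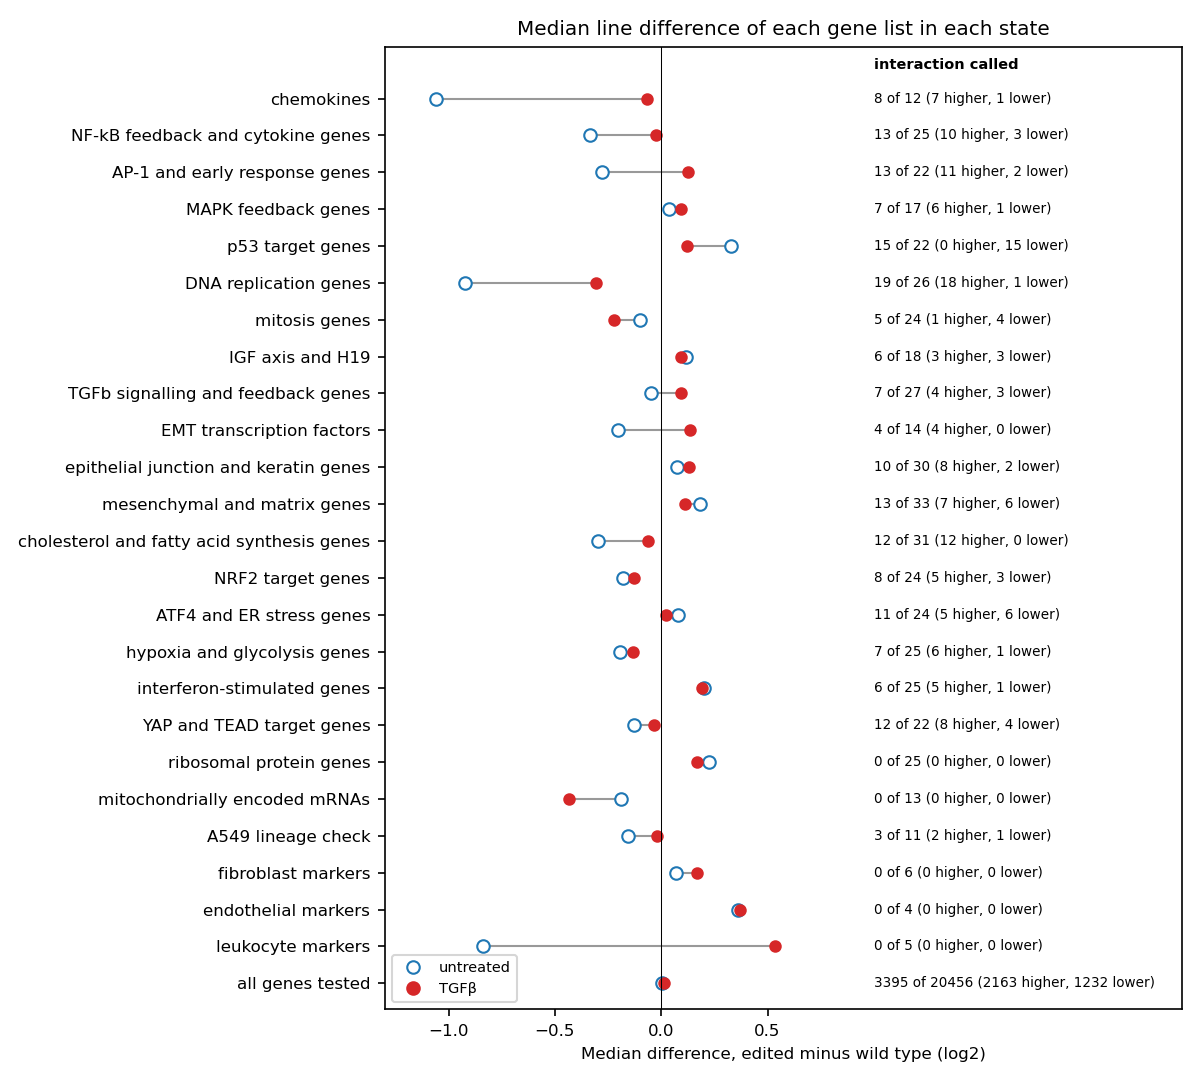
For each of 24 gene lists and for all genes tested, the median log2 difference edited minus wild type (x axis) is shown untreated (open) and with TGFβ (filled), with the called interactions printed at the right. Chemokines move from -1.06 to -0.07, DNA replication genes from -0.92 to -0.31 and p53 targets from 0.33 to 0.12, while all genes tested stay near 0.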

How the data were processed

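RNA-seq of 12 libraries was deposited as 1 table of normalized counts, a signal in reads divided by a size factor for each library. HISAT2, StringTie, featureCounts and DESeq2 and the build GRCh38.p14 are named by the submitters' processing notes, with versions, roles and strand setting not given in the sources used here. Each deposited column turned into whole reads on division by its smallest step (100% of values, tolerance 0.01), and the libraries held 84210775 to 111141708 reads.

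Genes that reached 10 in 3 or more libraries (20456 of 58830 rows) were fitted as log2(value + 1) with limma 3.58.1 in R 4.3.3, with 1 mean for each of the 4 groups and an intensity trend. The groups shared a single estimate of the spread of each gene. Tests were two-sided, with Benjamini-Hochberg adjustment over all genes tested and a threshold of 0.05. Log2 differences understate changes of low genes. The state of a called interaction came from the 2 line differences, and the larger state from the signs of the interaction and of the mean line difference. Of the rows, 28 bear dates in place of gene names (25 tested) and were not named.

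Named genes were the 5 markers, SNAI1 and MIR22HG with any result, then by size of a called interaction, at a mean of at least 100, the top 6 each way in the untreated and the treated class, 4 each way with opposite signs and 3 each way with the same sign, then the 4 or fewer called genes of largest interaction in the lists given with examples. Some genes that meet this rule are not reported here. The members and the gene lists were chosen with earlier results of these data known, so no list was tested and a count is a description. The TGFβ comparisons of the lines use the same libraries for the interaction and for the 2 line differences. Coordinates come from RefSeq (GRCh38.p14) by symbol, and KIAA0101, LINC00284, METTL7A and CTGF were not matched.

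Reads of near-identical, overlapping or antisense genes (PSG4, CXCL1, IGFL1, TMEM92-AS1) are uncertain. The fit was tested on simulated counts with known interactions. Alternatives were other pseudocounts, filters and scalings, robust variance, a replicate block, edgeR 4.0.16 and DESeq2 1.42.0 on recovered reads, each library left out, and WT-T1 and ED-T1 left out together, the last chosen after seeing the data.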

Additional observations from a re-analysis of the deposited data

Results flagged for a closer look

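The responses of the lines to TGFβ differed, by the test of the difference itself (the limma interaction on the log2 scale, edited minus wild type), in the genes listed here. Higher interactions where the lines differed in untreated cells and the treated difference did not pass were 2.20 for H19, 2.12 for AQP4, 2.09 for KIRREL3, 1.95 for R3HDML, 1.86 for MYOM3, 1.85 for KIAA0101, 1.71 for ITGB3, 1.56 for CCL2 and 1.34 for CXCL1. Further higher values there were 1.18 for ICAM1, 1.06 for JUN, 1.05 for CDT1, 1.05 for MCM3, 1.03 for FOSB, 0.81 for IFI6, 0.74 for CTGF, 0.66 for SCD and 0.66 for F3. Further higher values there were 0.61 for JUP, 0.61 for TGFB2, 0.52 for SMAD4 and 0.48 for LTBP1. Lower interactions where the lines differed in untreated cells and the treated difference did not pass were -2.80 for PAPPA2, -2.65 for COL22A1, -2.33 for MMP2, -2.18 for SLC16A6, -2.11 for TMEM92-AS1, -1.92 for ATOH8, -1.23 for IGFBP3, -1.21 for COL4A2 and -1.15 for IRF7. Further lower values there were -1.06 for CDKN1A, -1.06 for KRT80, -1.03 for HSPA5, -0.93 for FJX1 and -0.70 for FDXR. Higher interactions where the lines differed with TGFβ and the untreated difference did not pass were 2.91 for ADH4, 2.59 for LINC00284, 1.89 for AMTN, 1.84 for SULT1B1, 1.81 for PTPRE, 1.65 for OR51E1, 0.93 for CHAC1 and 0.62 for SNAI1. Lower interactions where the lines differed with TGFβ and the untreated difference did not pass were -2.62 for CNN1, -1.03 for PSG4, -1.02 for DIO2, -0.99 for LRRC46, -0.95 for AP3B2, -0.94 for KCNAB3 and -0.91 for YJEFN3. Higher interactions where the lines differed in both states with opposite signs were 2.55 for IGFL1, 1.81 for METTL7A, 1.66 for CXCL8, 1.60 for TNFRSF19, 1.52 for EGR2, 1.26 for DUSP1, 1.23 for FOS, 0.90 for DUSP10 and 0.82 for PTGS2. Further higher values there were 0.73 for IRS1, 0.67 for SOX4 and 0.60 for EPCAM. Lower interactions where the lines differed in both states with opposite signs were -1.87 for MYH3, -1.66 for GRIN2C, -1.53 for LINC00707, -1.44 for BEX2 and -1.11 for LCN2. Higher interactions where the lines differed in both states with the same sign were 1.46 for CCL20, 1.25 for ANKS1B, 1.15 for EMP2, 1.08 for GINS2, 0.98 for E2F1, 0.96 for ANKRD1, 0.86 for FADS2 and 0.54 for HMGA2. Lower interactions where the lines differed in both states with the same sign were -2.19 for DCLK1, -1.90 for CALCB, -1.48 for SEMA5A, -1.41 for IGFBP1, -1.25 for IL11 and -0.68 for ZMAT3. All of these passed in the main test. A treated difference that did not pass can go with treated libraries that lie apart, as in KIRREL3 and R3HDML.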

How the results depend on the processing

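Over 24 alternatives the interaction was called for 1553 to 2612 genes higher and 871 to 1673 lower (edgeR 1956 and 1448, DESeq2 2610 and 1609), and 70.7% to 99.1% of the 3395 calls were shared. Leaving out each library gave 1673 to 2731 genes in the untreated class, 218 to 834 in the treated class, 135 to 325 with the same sign, 106 to 471 with opposite signs, 148 to 259 in neither, and 129 to 503 with the larger difference under TGFβ. DESeq2 gave 344 with the same sign and 361 with opposite signs, and leaving out WT-T1 and ED-T1 gave 147 with opposite signs. The causes of these shifts were not tested. In the 24 alternatives no named gene changed the direction of its interaction. The replicate block gave 2527 genes higher and 1460 lower, against 2163 and 1232 in the main fit. Same-numbered libraries correlated at -0.031 to 0.129 in their deviations from the group means, and 8 of 12 correlated best with their own number, a hint from the data and not from the design. Since the labels name no shared source, the numbers were not taken as pairs, and whether same-numbered libraries share a batch was not tested. Depth limits low genes, and 3.31% of the 6866 with a mean under 100 were called, against 30.1% of the 2018 at 10000 or more.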

Other observations

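YAP and TEAD target genes, which report stretch and adhesion, had interactions called 8 higher and 4 lower of 22 tested (54.5%). Over all genes tested 16.6% were called. The list's median interaction was 0.08, with -0.13 untreated and -0.04 with TGFβ, and 11 of the 12 called were in the untreated class. CTGF, a matrix-associated growth regulator also known as CCN2, averaged, in the edited line against wild type, 8554 ± 801 against 16369 ± 206 untreated and 107890.0 ± 5085 against 123973 ± 4651 with TGFβ (interaction 0.74 ± 0.10, adjusted p = 0.000115). Its treated difference passed in 7 of 24 alternatives, among them without WT-T3 or ED-U1 (interaction 0.67 to 0.71). ANKRD1, a muscle and stress ankyrin protein, fell in both lines (-3.73 and -2.77, interaction 0.96 ± 0.21, adjusted p = 0.00579). F3, the coagulation tissue factor, rose by 2.19 in wild type and by 2.85 in the edited line (interaction 0.66 ± 0.13, adjusted p = 0.00198). FJX1 went the other way (-0.93 ± 0.18, adjusted p = 0.00207), and its treated difference passed with the opposite sign without WT-T3 (interaction -1.10).

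ATF4 and endoplasmic reticulum stress genes were called 5 higher and 6 lower of 24 tested (45.8%, against 16.6% over all genes tested). There were 3 higher under quantile normalization and 8 lower with edgeR or DESeq2. HSPA5, the main chaperone of that compartment, was counted at 120036, 138666 and 118836 in wild type and at 236153, 254168 and 230578 in the edited line without TGFβ. With TGFβ, HSPA5 stood at 98018, 95603 and 89936 in wild type and at 91393, 84938 and 89978 in the edited line. Its untreated libraries were higher in the edited line and the treated ones overlapped, an interaction of -1.03 ± 0.11, adjusted p = 1.55e-05. CHAC1, a glutathione-degrading ATF4 target, averaged, in the edited line against wild type, 2037 ± 114 against 2354 ± 189 untreated and 527 ± 99.3 against 319 ± 54.3 with TGFβ (interaction 0.93 ± 0.19, adjusted p = 0.00317). Interferon-stimulated genes were called 5 higher and 1 lower of 25 tested (24%), near the 21.4% of protein-coding genes. They were called 3 higher without WT-U1 or ED-U3 and 3 lower without ED-T2. IFI6, an interferon-induced mitochondrial protein gene, averaged, in the edited line against wild type, 181 ± 23.5 against 259.7 ± 52.8 untreated and 483 ± 39.1 against 391 ± 43.5 with TGFβ (interaction 0.81 ± 0.22, adjusted p = 0.0172). Its call was lost without WT-T1 and ED-T1 together (0.68), and the untreated difference did not pass without WT-U1, ED-U2 or ED-U3 (interaction 0.66 to 0.77). IRF7, a transcription factor of interferon genes, averaged 100.3 ± 18.1 against 51.3 ± 6.91 untreated and 143 ± 12.7 against 164 ± 7.18 with TGFβ (interaction -1.15 ± 0.26, adjusted p = 0.0069).

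Oxidative stress genes driven by NRF2 were called 5 higher and 3 lower of 24 tested (33.3%), and hypoxia and glycolysis genes 6 higher and 1 lower of 25 tested (28%). The share was 16.6% over all genes tested, 25.9% over those with a mean of 1000 to 10000 and 30.1% at 10000 or more. Without a single library the NRF2 higher count was as low as 3 (WT-U1 or WT-U3, WT-T2, ED-U1 or ED-U2, or ED-T1 or ED-T3), and the hypoxia lower count was 3 without WT-T3. Mitosis genes were called 1 higher and 4 lower of 24 tested (20.8%), close to the 16.6% of all genes tested, and leaving out a single library gave 0 to 9 lower, the 9 without WT-T3. Ribosomal protein genes had 0 called of 25 with limma (0 at an unadjusted p under 0.05 and 0 with edgeR or DESeq2), and 1 lower without WT-T3. Mitochondrially encoded mRNAs had 0 called of 13 with limma (5 lower at an unadjusted p under 0.05, 4 with edgeR, 5 with DESeq2), 2 lower without ED-T1 and 8 lower without WT-T3. Among genes matched to a RefSeq symbol, the interaction was called in 21.4% of 13879 protein-coding genes, 9.31% of 816 lncRNAs and 2.53% of 633 pseudogenes.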
